A study of Rattus norvegicus with 47 samples.

Results

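Type I interferon-stimulated genes were followed in the blood of rats over the first 24 h of an experimental stroke. Of 38 genes listed by name, 34 were found in the deposited table under those symbols: 4 transcription factors of the response, 8 of 11 sensors of foreign nucleic acid, 16 of 17 effectors and 6 of 6 modifiers that attach, remove or resemble ubiquitin-type tags or add ADP-ribose. The genes Eif2ak2, Oas3, Trim25 and Xaf1 were not matched under these spellings and are not among the 34; a probe set listed as XAF1 in capitals is described apart, after the modifiers. For each symbol the probe set with the highest mean over the 6 time points was taken. This rule mattered only for Rnf213, since 33 of the 34 genes had only 1 probe set. The genes themselves were listed with earlier results of these data known. The whole table held 27596 probe sets, 21406 of them with a gene symbol.

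The study drew blood repeatedly from 8 male spontaneously hypertensive rats (SHR), aged 16 weeks, before and at 1, 2, 3, 6 and 24 h post middle cerebral artery occlusion (MCAo), and measured mRNA of the whole blood cell pellet on RaGene-1_0-st arrays. All 6 groups were therefore the same inbred, hypertensive, male animals, untreated other than by surgery under isoflurane, and the 0 h sample was taken from the awake rat just before anaesthesia. The occluding thread was withdrawn under a further anaesthetic between the 1 h and 2 h samples. The first 5 samples were drawn from the tail, and the last, at 24 h, by heart puncture following an isoflurane overdose, and there was no sham-operated group, so that time since occlusion, surgery, anaesthesia, time of day and, at 24 h, the site of sampling cannot be told apart. The table gave the authors' mean and SD of the log2 signal for 8 arrays at each time point and for 7 at 6 h. These were the only values used, since the columns of single arrays could not be matched to rats or times by name. Spread was small: the median SD over all probe sets was 0.137 to 0.160 log2 units at the different times, and 0.159 to 0.212 over the interferon-stimulated genes. Markers of blood were present, with the authors' mean for haemoglobin beta (Hbb) between 13.49 and 13.52 at every time point in a table whose highest mean was 13.62.

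Type I interferons are cytokines released by cells that sense viral or misplaced nucleic acid. They bind a receptor on nearly all nucleated cells, whose kinases phosphorylate STAT proteins, among them STAT2. With IRF9 these form the complex ISGF3, which binds a short DNA element, the interferon-stimulated response element (ISRE), in front of many genes. The products block viral entry, translation and assembly, sharpen further sensing or switch the response off, and in blood they serve as a sensitive readout of interferon exposure.

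The promoters of the genes studied are shown first because that element is what they are known for. RefSeq windows of 300 bases (250 before to 50 after the start, assembly GRCr8) were at hand for 25 of the 34 genes. The core ISRE, searched on both strands as GAAA, any 2 bases and GAAA, was found in 14 of the 25 windows (56.0%) and in 3.92% of all 33469 promoter windows. A longer form, in which CT follows directly and which therefore contains the core, was in 7 of 25 (28.0%) against 0.278% of all. The gamma-activated sequence (GAS), the element of the interferon-gamma response, searched as TTCNNNGAA, was in 6 of 25 (24.0%) against 8.87% of all. A match is a description of letters, not of binding. In the stretches below, read 5′ to 3′ on the strand of the gene, capitals mark the ISRE core on either strand; the first 3 belong to genes that rose early after stroke, the next 4 to genes that fell, and the last to Rsad2, which was higher at 24 h.
Ifih1 (chr3:67684003-67684042, minus strand): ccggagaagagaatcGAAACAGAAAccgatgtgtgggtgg
Oasl2 (chr12:47383312-47383351, minus strand): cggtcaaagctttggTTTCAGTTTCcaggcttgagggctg
Ifit3 (chr1:241527267-241527306, plus strand): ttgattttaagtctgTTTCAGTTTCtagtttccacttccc
Irgm (chr10:33742588-33742627, minus strand): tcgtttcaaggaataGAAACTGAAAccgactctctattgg
Ifi44 (chr2:243303842-243303881, minus strand): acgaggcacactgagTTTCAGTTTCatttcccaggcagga
Bst2 (chr16:18255068-18255113, minus strand): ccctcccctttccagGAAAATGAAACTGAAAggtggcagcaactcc
Gbp5 (chr2:233910928-233910967, plus strand): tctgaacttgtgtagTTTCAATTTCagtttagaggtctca
Rsad2 (chr6:48788243-48788282, minus strand): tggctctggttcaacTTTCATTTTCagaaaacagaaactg

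Genes with and without the core were counted side by side. Of the 14 genes with a core ISRE in the window, 3 were higher than at 0 h and 4 lower by 2 h, 3 against 7 by 6 h, and 1 against 8 by 24 h (limma, adjusted p below 0.05). Of the 11 without it, 5 were higher against 3 lower by 2 h, 2 against 4 by 6 h, and again 1 against 8 by 24 h. Over all probe sets, 21.7% were higher and 18.6% lower by 2 h, 22.5% against 19.3% by 6 h, and 17.4% against 13.9% by 24 h. The difference between the groups was not tested.

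The interferon-stimulated genes moved in both directions within hours and mostly downwards by 24 h. At 2 h 12 of the 34 were higher and 9 lower than at 0 h (limma, adjusted p below 0.05), whereas at 24 h only 2 were higher and 25 lower. The median change in log2 signal went from 0.05 at 2 h to -0.23 at 6 h and -0.58 at 24 h, while the median over all probe sets stayed between 0.04 and 0.07. The other time points gave 9 higher genes and 10 lower ones (1 h), 9 against 12 (3 h), and 7 against 17 (6 h). Under quantile normalization of the means the balance after 3 h turned, to 13 higher against 9 lower, and after 1 h it was 9 against 8. These counts are read against a table in which many probe sets were called: over all probe sets, the share called higher was 21.7% after 1 h, 21.7% after 2 h, 27.3% after 3 h, 22.5% after 6 h and 17.4% after 24 h. The share called lower was 15.4%, 18.6%, 19.2%, 19.3% and 13.9% in the same order. The members' shares lay near or above that background at 1 to 3 h, from 26.5% against 27.3% for higher genes at 3 h to 29.4% against 15.4% for lower genes at 1 h. They parted from it later, with 17 of 34 genes lower by 6 h, and with 73.5% lower against 5.88% higher by 24 h. The lowest of the 6 means fell at 24 h for 27 of the 34 genes (79.4%), against 9.66% of all probe sets. Signal differed over the 6 time points in 32 of 34 (55.5% of all probe sets by the same F test), the exceptions being Ifi35 and Isg20.

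**Figure D1:**
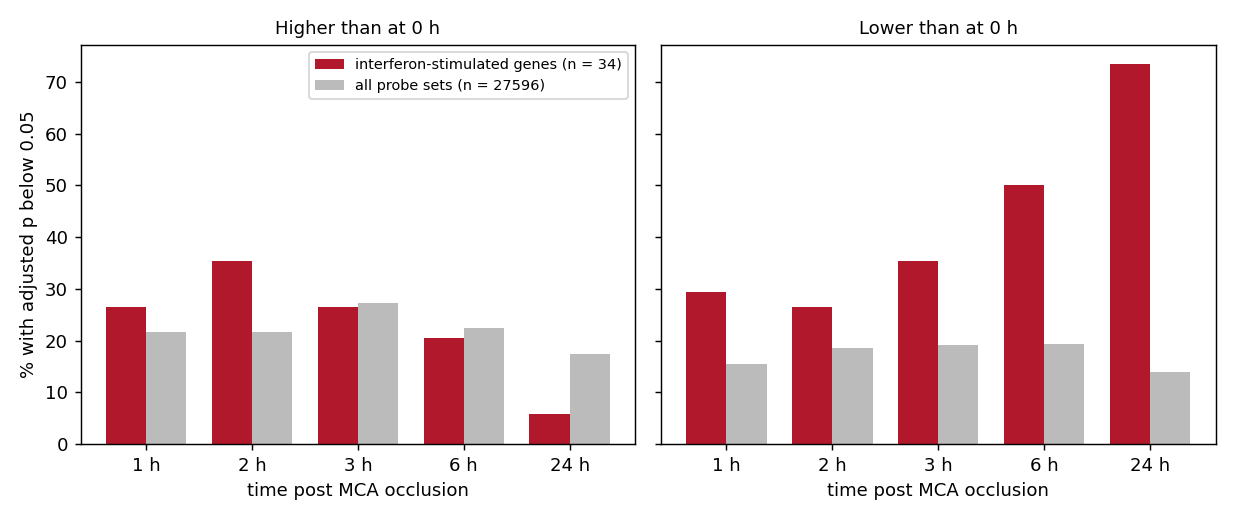
Share of the 34 interferon-stimulated genes (red) and of all 27596 probe sets (grey) called higher (left) or lower (right) than at 0 h, at each time post MCA occlusion; the vertical axis is the percentage with an adjusted p below 0.05. The red bar for lower genes reaches 73.5% at 24 h against 13.9% for all probe sets.

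Between neighbouring time points the direction turned after 2 h. From 1 h to 2 h 8 of the genes rose and 3 fell, where 4.66% of all probe sets rose and 4.11% fell. From 2 h to 3 h 2 rose and 6 fell (1.9% and 1.62% of all), from 3 h to 6 h 1 rose and 15 fell (2.34% and 2.44% of all), and from 6 h to 24 h 2 rose and 15 fell (10.2% and 8.68% of all). The genes that rose after 2 h were Parp9 and Dtx3l by 3 h, Gbp2 by 6 h, and Rsad2 and Cmpk2 by 24 h. With the variance of the compared time points alone, 1 rose and 3 fell from 2 h to 3 h and none rose from 3 h to 6 h.

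**Figure D2:**
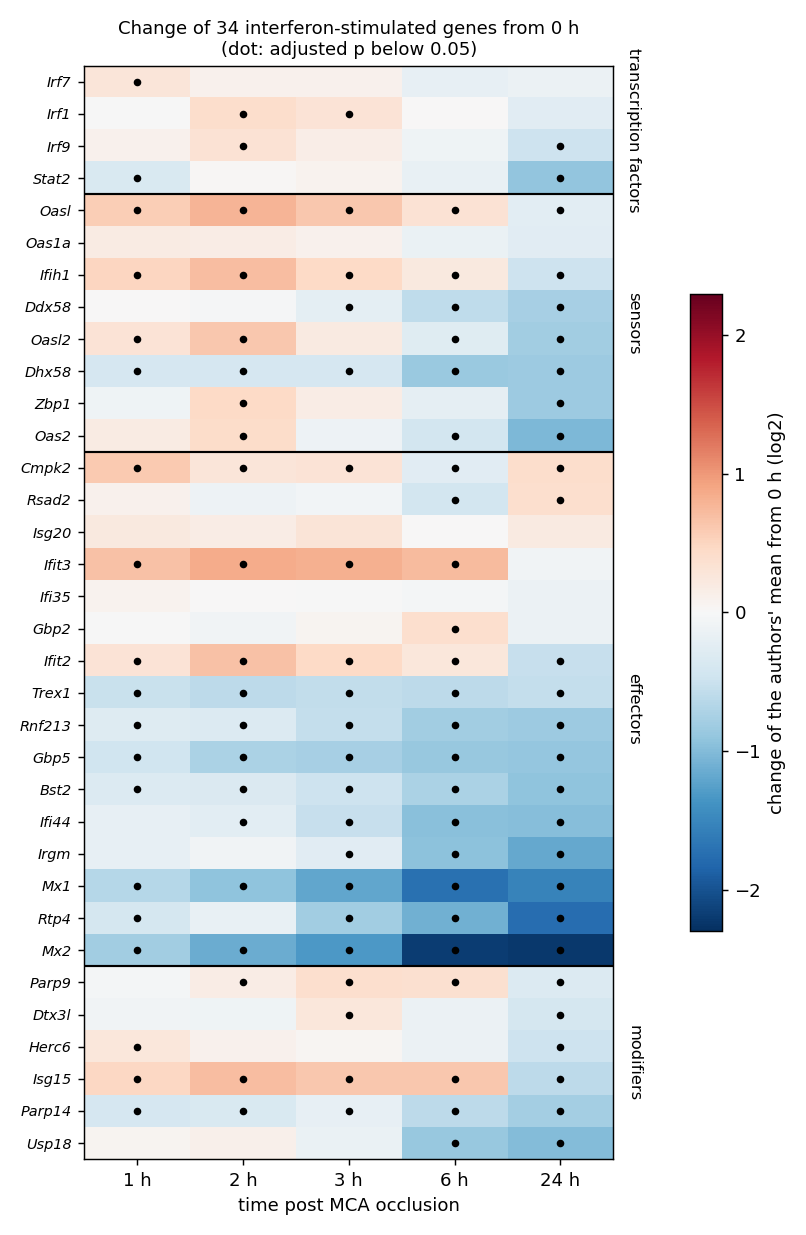
Change of the authors' mean log2 signal from 0 h for the 34 genes (rows, grouped by role and sorted by the 24 h change) at 5 times post MCA occlusion (columns); red is higher, blue is lower, and a dot marks an adjusted p below 0.05. Mx2, Rtp4 and Mx1 are the darkest blue at 24 h, at -2.21, -1.75 and -1.53, while Ifit3, Oasl, Isg15 and Ifih1 are red from 1 h to 6 h.

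Taken by their calls against 0 h, the genes fell into a few time courses. Of the 34, 9 (26.5%) were higher at some time from 1 h to 6 h, lower at none of these, and lower at 24 h: Irf9, Ifih1, Zbp1, Oasl, Ifit2, Isg15, Herc6, Parp9 and Dtx3l. Only 0.308% of all probe sets, 85 in number, had that course. A further 14 genes (41.2%, against 12.7% of all) were lower both at some time from 1 h to 6 h and at 24 h, and 8 of these were lower at all 5 later times (23.5%, against 8.43% of all): Dhx58, Mx1, Mx2, Rnf213, Bst2, Gbp5, Trex1 and Parp14. Irf1, Irf7, Ifit3 and Gbp2 were called only between 1 h and 6 h and were higher there (11.8%, against 23.2% of all). Oas2, Oasl2 and Cmpk2 were both higher and lower within the first 6 h. Rsad2 was lower at 6 h and higher at 24 h, and Oas1a, Ifi35 and Isg20 had no call at any time (8.82%, against 32.7% of all). Of the 112 calls against 0 h, 99 held under all 8 alternative settings and none turned. The other 13 missed the threshold under at least 1 of them: Irf7, Rtp4, Bst2 and Herc6 at 1 h, Ifi44, Bst2 and Parp9 at 2 h, Ddx58, Irgm and Parp14 at 3 h, Oasl2 and Cmpk2 at 6 h, and Oasl at 24 h.

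Of the 4 transcription factors, Irf1, Irf7 and Irf9 had short rises, and Irf9 and Stat2 were lower at 24 h. IRF9, STAT2, IRF7 and IRF1 carry the interferon signal to DNA: IRF9 and STAT2 are parts of ISGF3, IRF7 drives the second wave of interferon-alpha, and IRF1 acts on both interferon and interferon-gamma targets. The means of Irf9 (probe set 10780433) were 10.47, 10.57, 10.81, 10.62, 10.38 and 9.99 at 0, 1, 2, 3, 6 and 24 h, with SDs of 0.0911 to 0.166. Irf9 was thus highest at 2 h and lowest at 24 h, and the mean ± SD ranges at both times lay clear of that at 0 h. It rose by 0.34 ± 0.07 (SE) at 2 h (adjusted p = 4.72e-05) and fell by 0.48 ± 0.07 at 24 h (adjusted p = 3.7e-07).

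The means of Stat2 (10893067) were 9.36, 9.01, 9.38, 9.43, 9.19 and 8.46, with SDs of 0.119 to 0.203. Stat2 dipped at 1 h, was back at 2 h and fell furthest at 24 h. The change was -0.34 at 1 h (adjusted p = 0.000865) and -0.90 at 24 h (adjusted p = 1.72e-11), the largest of the 4 factors. Irf1 (10733553) had means of 9.41, 9.40, 9.81, 9.73, 9.42 and 9.14. It was higher at 2 h and 3 h only, by 0.40 and 0.31, and its SD, 0.0934 to 0.308, was the widest of the 4. At 24 h its change of -0.27 missed the threshold (adjusted p = 0.0578). Irf7 (10726758), the gene of this group most often used to mark interferon exposure, was higher at 1 h only, by 0.29 (adjusted p = 0.0103), a call lost under quantile normalization of the means (0.22, adjusted p = 0.0644), and its other changes ran from -0.19 to 0.10. Irf1 and Irf9 had a GAS core rather than an ISRE core in their windows, shown here in capitals.
Irf1 (chr10:38417778-38417816, plus strand): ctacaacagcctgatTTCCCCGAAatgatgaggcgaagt
Irf9 (chr15:33065722-33065760, plus strand): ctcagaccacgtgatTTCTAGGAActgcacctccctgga

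Most sensors were higher at 2 h and lower at 24 h. Of the 8, 5 were higher and 1 was lower at 2 h, and by 24 h 7 were lower and none higher. Over all probe sets 21.7% were higher against 18.6% lower at the first of these times, and 17.4% against 13.9% at the second. Their median change was 0.44 at 2 h, the highest of the 4 roles, and -0.78 at 24 h, the lowest. The RIG-I-like receptors, helicases that detect viral RNA in the cytoplasm, did not move together. Ifih1, which encodes MDA5 and reads long double-stranded RNA, had means of 10.24, 10.73, 10.95, 10.71, 10.47 and 9.77 (10845708; rat assembly rn5, chromosome 3). With SDs of only 0.0432 to 0.138, its values at 1, 2 and 3 h stood well above 0 h and those at 24 h well below. It was higher by 0.49, 0.71, 0.46 and 0.22 at 1, 2, 3 and 6 h and lower by 0.47 at 24 h, and all 5 adjusted p-values passed, the 2 h value being 1.52e-14 and the 24 h value 1.41e-08.

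Ddx58, which encodes RIG-I and reads short RNA with a free triphosphate, did not rise at any time. Its means were 8.89, 8.90, 8.86, 8.66, 8.31 and 8.13, level to 2 h and lower from 3 h on. The changes were -0.23 at 3 h, -0.58 at 6 h and -0.76 at 24 h. Dhx58, which encodes LGP2, a helicase without a signalling domain that tunes the other two, fell from the start. It went from 7.81 at 0 h to 7.41, 7.42 and 7.43 at 1, 2 and 3 h and to 6.95 and 6.97 at 6 and 24 h. Its change of -0.39 at 1 h (adjusted p = 0.00125) had thus grown to -0.86 at 6 h (adjusted p = 9.34e-10). Ifih1 and Dhx58 stood on opposite sides of their 0 h means at every time up to 6 h.

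The oligoadenylate synthetases make a messenger of linked adenylates on sensing double-stranded RNA. Oas2 (10763149), an active enzyme, had means of 8.35, 8.53, 8.77, 8.23, 7.93 and 7.32. It was higher at 2 h by 0.42 and lower at 6 h and 24 h by 0.42 and 1.03. The rat genes Oasl and Oasl2, which lie 13.9 kb apart on chromosome 12 (rn5), encode the synthetase-like proteins. Oasl rose by 0.56, 0.78, 0.61 and 0.34 at 1, 2, 3 and 6 h and fell by 0.24 at 24 h (adjusted p = 0.0439), the last call being lost under 3 of the alternatives, with adjusted p = 0.0509 to 0.177. Oasl2 rose by 0.31 and 0.62 at 1 and 2 h, was already lower at 6 h (-0.27, adjusted p = 0.0336, and 0.0517 to 0.0915 under 3 of the alternatives) and reached -0.80 at 24 h. Both peaked at 2 h, and Oasl returned later.

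Oas1a had no call, with changes of 0.19 at 1 h to -0.26 at 24 h, but it belongs to a family of near-identical copies and its probes may read several of them. Its relatives outside the list, looked at after the values were seen, did not share a direction. Oas1b and Oas1i, with 0 h means of 7.92 and 6.99, were lower at 24 h, by 1.16 and 0.46. Oas1f and Oas1h were higher, by 0.13 and 0.33, and Oas1d and Oas1e were not called at that time (0.22 and 0.16). Oas1f, Oas1h, Oas1d and Oas1e had 0 h means of 4.40 to 5.49, below the median of 6.61 over all probe sets. Of these, Oas1f and Oas1d missed the F test (adjusted p = 0.0753 and 0.124). The lack of a shared direction thus rests on dim probe sets. Zbp1, the sensor of left-handed nucleic acid that can start necroptosis, had means of 8.60, 8.51, 9.05, 8.76, 8.39 and 7.75. It was higher only at 2 h, by 0.46 (adjusted p = 2.09e-05), and lower at 24 h by 0.84 (adjusted p = 2.87e-10).

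**Figure D3:**
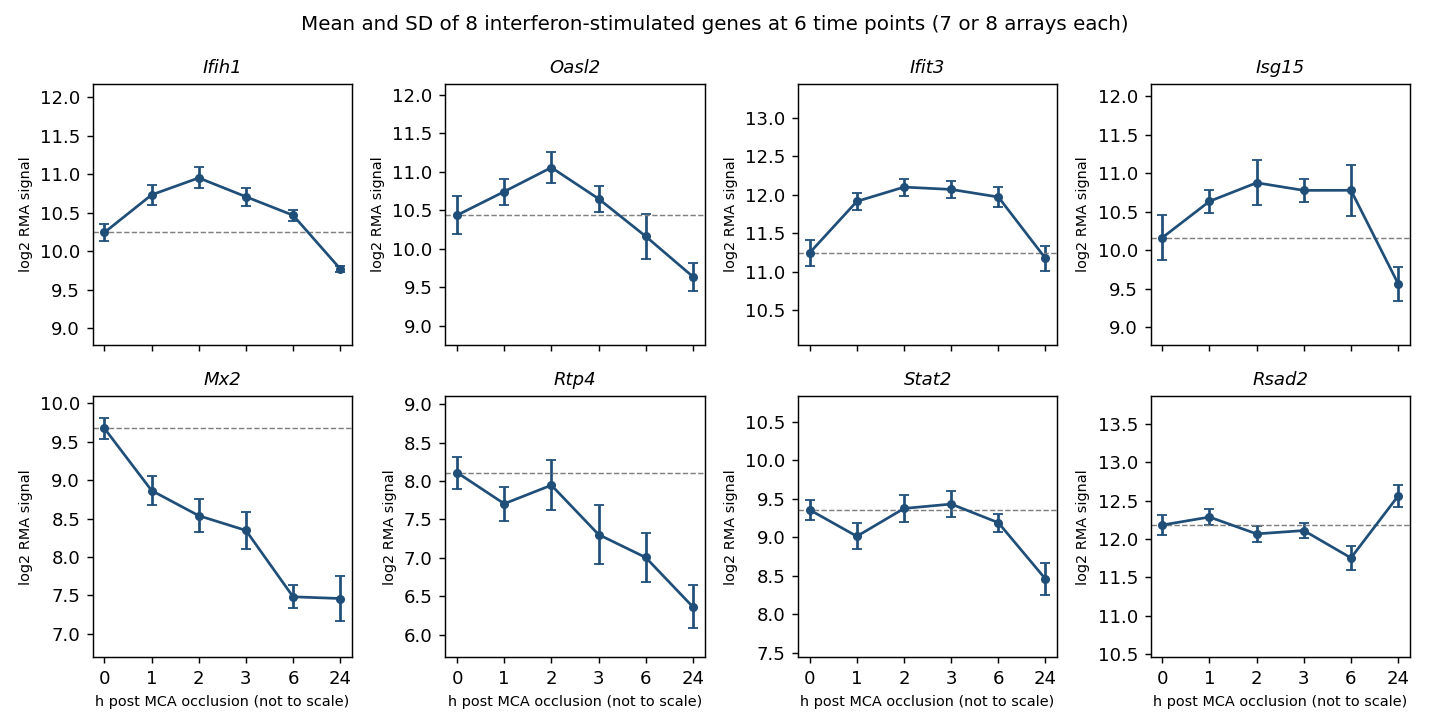
Authors' mean log2 signal (points) and SD (bars) of 8 interferon-stimulated genes at 6 times post MCA occlusion; the dashed line is the 0 h mean, every panel spans the same number of log2 units, and time is not drawn to scale. Ifih1, Oasl2, Ifit3 and Isg15 rise to 2 h, Mx2 and Rtp4 fall, Stat2 is lowest at 24 h, and Rsad2 is lowest at 6 h and highest at 24 h.

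Effectors held the largest falls, in Mx2, Rtp4 and Mx1, and also the largest rise, in Ifit3. Of the 16, 3 were higher and 7 lower at 1 h, and 2 higher and 10 lower at 24 h, with medians of -0.19 and -0.70. The shares higher, 18.8% and 12.5%, were below those of all probe sets (21.7% and 17.4%), and the shares lower, 43.8% and 62.5%, were above them (15.4% and 13.9%). The dynamin-like GTPases MX1 and MX2 trap viral nucleocapsids and are among the most specific products of type I interferon. The means of Mx2 (10750524; rn5 chr11:41546014-41608331, plus strand) were 9.67, 8.86, 8.54, 8.35, 7.48 and 7.46 at 0, 1, 2, 3, 6 and 24 h, with SDs of 0.138 to 0.288. Every later mean ± SD range lay below that of 0 h, and the 6 h and 24 h values were alike. Mx2 fell by 0.81 ± 0.10 at 1 h (adjusted p = 2.1e-08) and by 2.21 ± 0.10 at 24 h (adjusted p = 1.16e-21), when its signal was 0.216 of that at 0 h. This was the most negative 24 h change among the 27596 probe sets.

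Mx1 (10753425), 123 kb away, behaved much as Mx2 did. Its means were 10.44, 9.79, 9.52, 9.25, 8.73 and 8.91, lowest at 6 h, and its SDs 0.114 to 0.283. The changes were -0.65, -0.92, -1.20, -1.72 and -1.53, the last ranking 4 from the bottom of all probe sets at 24 h. Between them stood Rtp4, at rank 3, a chaperone that restrains the response to viral RNA. Rtp4 (10755088) had means of 8.11, 7.70, 7.95, 7.30, 7.00 and 6.36 and wider SDs, 0.208 to 0.386. It was lower at 1 h by 0.41 (adjusted p = 0.0208), not called at 2 h (-0.16), and lower by 0.81, 1.10 and 1.75 at 3, 6 and 24 h (24 h adjusted p = 7.47e-13). Among the 100 most negative 24 h changes in the table, 10 were of interferon-stimulated genes from the list.

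The other effectors that fell differed in when they did so. Irgm, an immunity-related GTPase of autophagy and rank 17 at 24 h, was not called at 1 h or 2 h and was lower by 0.25, 0.95 and 1.18 at 3, 6 and 24 h. Ifi44 followed the same course, at -0.54, -0.97 and -0.98, with an earlier call of -0.25 at 2 h. Bst2, the tether of budding virus known as tetherin, went from -0.31 at 1 h to -0.92 at 24 h. Gbp5, a guanylate-binding protein of the inflammasome, reached -0.73 at 2 h and stayed near -0.88 at 6 h and 24 h, and Trex1, the exonuclease that clears cytoplasmic DNA, was lower by 0.52 to 0.60 at all 5 times. Gbp2, 80 kb from Gbp5, went the other way once: its mean was 10.48 at 0 h and 10.87 at 6 h, a rise of 0.39 (adjusted p = 0.000141), with changes of -0.14 to 0.07 at the other times.

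Rnf213, a giant ubiquitin ligase with antiviral action and the susceptibility gene of moyamoya disease of the brain arteries, was the only listed gene with several probe sets, 15 in all. The probe set chosen by level (10739984) had means of 12.05, 11.75, 11.74, 11.50, 11.25 and 11.21 and was lower by 0.30, 0.32, 0.55, 0.80 and 0.84. The other probe sets moved with it. All 15 were lower from 3 h on, 14 were so at 2 h and 9 were so at 1 h, and none was higher at any time. At 24 h the 15 changes ran from -1.34 to -0.78 with a median of -1.01, so the chosen one lay near the small end. These are readings of the same RNA samples and not replicates.

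**Figure D4:**
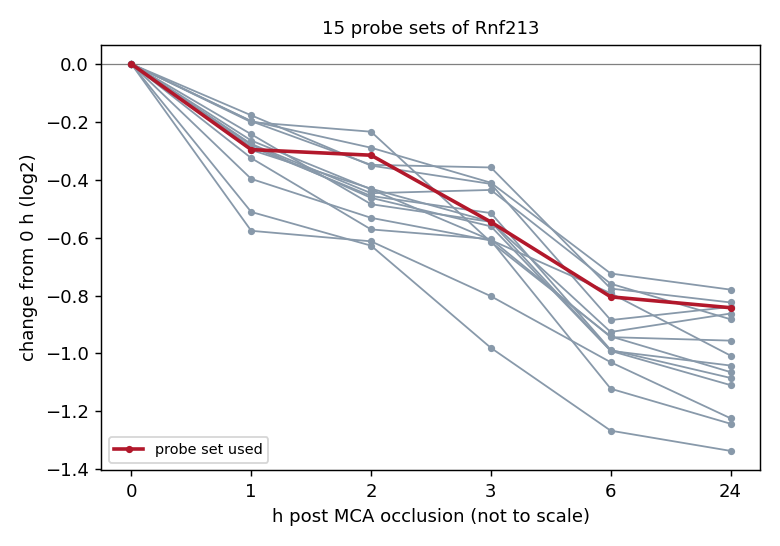
Change of log2 signal from 0 h (vertical axis) for the 15 probe sets of Rnf213 at each time post MCA occlusion (horizontal axis, not to scale); red is the probe set used, with the highest mean. All lines lie below 0 from 1 h on and end between -1.34 and -0.78 at 24 h.

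The IFIT genes, whose proteins hold back translation of foreign RNA, were higher at all 4 times from 1 h to 6 h. Ifit3 (10714903) had means of 11.24, 11.91, 12.10, 12.07, 11.97 and 11.17 with SDs of 0.110 to 0.167. The 4 means from 1 h to 6 h formed a plateau clear of 0 h, and 24 h overlapped 0 h. It was higher by 0.67, 0.85, 0.82 and 0.73 (1 h adjusted p = 1.01e-10; 2 h adjusted p = 1.48e-14), and the 24 h change was -0.07 (adjusted p = 0.43). Ifit2, 5.5 kb away on chromosome 1 (rn5), had means of 10.10, 10.41, 10.78, 10.56, 10.36 and 9.57. It rose by up to 0.68 at 2 h, as Ifit3 did, but ended 0.53 below 0 h (adjusted p = 1.37e-07).

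Rsad2 and Cmpk2 were the only listed genes higher at 24 h. RSAD2, or viperin, makes a chain-ending nucleotide from the product of CMPK2, and the genes lie head to head 14.9 kb apart on chromosome 6 (rn5). The means of Rsad2 (10889399) were 12.18, 12.29, 12.07, 12.11, 11.75 and 12.56, with SDs of 0.0956 to 0.153. It fell by 0.43 at 6 h (adjusted p = 6.31e-07) and was higher by 0.38 at 24 h (adjusted p = 1.21e-05), a step of 0.81 from 6 h. Cmpk2 (10883960) had means of 9.37, 9.98, 9.64, 9.68, 9.12 and 9.79. It was higher at 1, 2 and 3 h by 0.61, 0.27 and 0.31, where Rsad2 had no call. It was lower at 6 h by 0.25 (adjusted p = 0.0363, and 0.0554 to 0.113 under 3 of the alternatives) and higher at 24 h by 0.41 (adjusted p = 0.000896), a step of 0.66 from 6 h. Of 8 erythroid markers, 6 rose from 6 h to 24 h, where 10.2% of all probe sets did. Against 0 h, 2 of them were lower at 6 h (list median -0.12; 19.3% of all probe sets lower) and 3 were higher at 24 h (list median 0.11; 17.4% of all higher). The widest course was that of Slc4a1, the red cell anion exchanger, at -0.23 (not called) and 0.58. Other lists moved from 6 h to 24 h too: 8 of 9 T cell and 7 of 8 B cell markers rose, and all 10 neutrophil markers fell. Of 6 platelet markers 1 rose in that step, and 4 were higher at 24 h than at 0 h. Whether the content of red cells or of other cells had a part in the Rsad2 and Cmpk2 values was not tested. Ifi35 and Isg20, the remaining effectors, changed by at most 0.13 and 0.29 in either direction with no call.

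The modifiers centred on ISG15, a ubiquitin-like tag placed on proteins by HERC6 in rodents and removed by USP18, which also blocks the interferon receptor. Of the 6, 2 (33.3%) were higher and 1 (16.7%) lower at 2 h, near the 21.7% and 18.6% of all probe sets, and all 6 were lower at 24 h, where 13.9% of all were. Isg15 (10882317) had means of 10.16, 10.63, 10.88, 10.78, 10.78 and 9.56, with SDs of 0.148 to 0.333. It held a plateau from 1 h to 6 h, with rises of 0.47, 0.71, 0.61 and 0.62, and then dropped by 1.21 from 6 h to 24 h (adjusted p = 7.19e-11), ending 0.60 below 0 h. Usp18 (10858370) had means of 9.71, 9.78, 9.82, 9.56, 8.84 and 8.72. It was not called up to 3 h and lower by 0.87 and 1.00 at 6 h and 24 h. At 6 h the mRNA signal of Isg15 was thus above its 0 h mean and that of Usp18 below. Proteins were not measured. Herc6 was higher at 1 h by 0.26 and lower at 24 h by 0.47.

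The ADP-ribosyltransferase genes Parp9 and Parp14 and the ubiquitin ligase gene Dtx3l lie on chromosome 11 (rn5) and did not move as a unit. Parp9 and Dtx3l, whose products work as a pair, start 1.33 kb apart on opposite strands. Parp9 rose late, by 0.17, 0.39 and 0.37 at 2, 3 and 6 h, and was lower at 24 h by 0.31. Dtx3l was higher at 3 h only, by 0.26 (adjusted p = 0.00508), and lower at 24 h by 0.41. Parp14, 305 kb from Dtx3l, was lower at all 5 times, by 0.39, 0.35, 0.19, 0.61 and 0.78. XAF1, an apoptosis gene that the table lists in capitals and that therefore fell outside the rule, rose by 0.68, 1.13 and 0.71 at 1, 2 and 3 h and fell by 0.37 at 24 h.

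Genes upstream of the response were looked at from fixed lists. Of 9 interferon genes in the table, none was lower at any time and 1, 3, 3, 4 and 5 were higher at 1, 2, 3, 6 and 24 h, but no change exceeded 0.21. The share was 11.1% at 1 h, below the 21.7% of all probe sets. At 2 h and 3 h it was 33.3% (21.7% and 27.3% of all). It was 44.4% at 6 h (22.5% of all) and 55.6% at 24 h, above the 17.4% of all. At 24 h the median over all probe sets itself changed by 0.04. Of all 67 interferon pathway genes outside the main list, these 9 among them, 13 were higher at 24 h. That count was 9 with means centred on their median, and 9 with the variance of the compared time points alone. Ifnb1, which encodes interferon-beta, changed by 0.03 to 0.11 with no call. The genes called at 24 h were Ifna1, Ifna2, Ifna5, Ifna11 and Ifna16l1, at 0.17 to 0.21, from 0 h means of 4.81 to 7.24. These are close copies whose probes may not tell them apart, so the 5 calls may not be separate readings. Of 11 receptor and signalling genes, 2 (18.2%) were higher and 6 (54.5%) lower at 6 h, and 2 (18.2%) higher and 7 (63.6%) lower at 24 h; the shares higher lay near those of all probe sets, 22.5% and 17.4%, and the shares lower above theirs, 19.3% and 13.9%. The receptor chains of interferon-gamma were higher, Ifngr1 by 1.16 and Ifngr2 by 0.96 at 6 h, and the lymphoid and myeloid factor Irf8 was lower by 1.07 at 2 h. Ifnar1, a chain of the type I receptor, was called at 24 h only, at 0.16.

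Of 8 upstream sensing genes, 4 were higher and 3 lower at 2 h (21.7% and 18.6% of all probe sets), and 1 was higher and 4 lower at 24 h (17.4% and 13.9% of all). Myd88, the adaptor of most Toll-like receptors, was higher by 0.93 at 6 h, and Traf3 and Tbk1, which pass the signal to IRF3, were lower by 0.70 at 2 h and 0.53 at 24 h. Of the 5 brakes on the pathway 3 were higher at 2, 3 and 6 h, where 21.7%, 27.3% and 22.5% of all probe sets were. Socs3, which binds receptor-associated JAK kinases, rose by 1.19, 1.74 and 1.72 at 2, 3 and 6 h and stood at 0.13, not called, at 24 h. Socs1 was higher by 0.16 to 0.25 from 1 h to 6 h. Ptpn6, the phosphatase SHP-1, was higher by 0.17 to 0.29 from 2 h to 6 h, and Ptpn2, a phosphatase of JAK-STAT signalling, was lower at 1 h (-0.27) and 24 h (-0.32).

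A further 34 genes known to answer interferon were counted in the same way, with 12 of them higher against 10 lower (2 h), 6 against 18 (6 h), and 5 against 20 (24 h). The shares over all probe sets were 21.7% against 18.6%, 22.5% against 19.3% and 17.4% against 13.9%. Ddx60, a helicase that aids RIG-I, was lower at all 5 times and reached -1.57 at 6 h. Slfn5 reached -1.38 at the same time. The changes of the list at 6 h ran from -1.57 to 1.84, the highest being that of a gene not reported here by name. Mov10, an RNA helicase named here after its values were seen, was higher at all 5 times and reached 1.16 at 6 h. The median changes of the 34 genes at 2, 6 and 24 h were 0.13, -0.23 and -0.29. Their lowest mean fell at 6 h in 17 and at 24 h in 8 (23.5%), where the listed genes had 6 and 27 (79.4%). From 6 h to 24 h, 6 of these genes rose and 10 fell, with a median of 0.03 (10.2% and 8.68% of all probe sets).

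The signals of blood cell markers moved at the same time. In whole blood, fewer cells of a type and less RNA per cell cannot be told apart. The counts of markers are read against the shares of all probe sets, which were 21.7% to 27.3% higher and 15.4% to 19.3% lower up to 6 h, and 17.4% higher and 13.9% lower at 24 h. Of 10 neutrophil markers, 9 were higher at 1 h and all 10 at 2, 3 and 6 h, with medians of 1.00, 1.49, 1.33 and 1.65, and 8 at 24 h with a median of 0.74. All 9 T cell markers were lower at every time, with medians of -0.52, -0.91, -1.10, -1.24 and -0.70. Of 8 B cell markers 7 or 8 were lower up to 6 h, with a lowest median of -2.07 at 3 h, and 6 at 24 h with a median of -0.53. NK cell markers were lower for 6 of 8 at 24 h, with a median of -0.70.

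From 6 h to 24 h, 7 of 8 B cell and 8 of 9 T cell markers rose and all 10 neutrophil markers fell, while 15 of the 34 interferon-stimulated genes fell (10.2% of all probe sets rose and 8.68% fell). Monocyte markers were mixed, with 3 higher and 5 lower at 6 h and 4 lower at 24 h. The markers of plasmacytoid dendritic cells, the main makers of interferon-alpha, were mixed at 2 h, with 2 of 6 higher and 2 lower (median 0.04). At 6 h 1 was higher and 3 were lower, and at 24 h none was higher and 5 were lower (median -0.30). Of 6 platelet markers 3, 2, 2, 0 and 4 were higher at 1, 2, 3, 6 and 24 h, with none lower at any time. No marker list could be set against single arrays, and the part of cell composition in the interferon-stimulated gene changes was not tested.

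**Figure D5:**
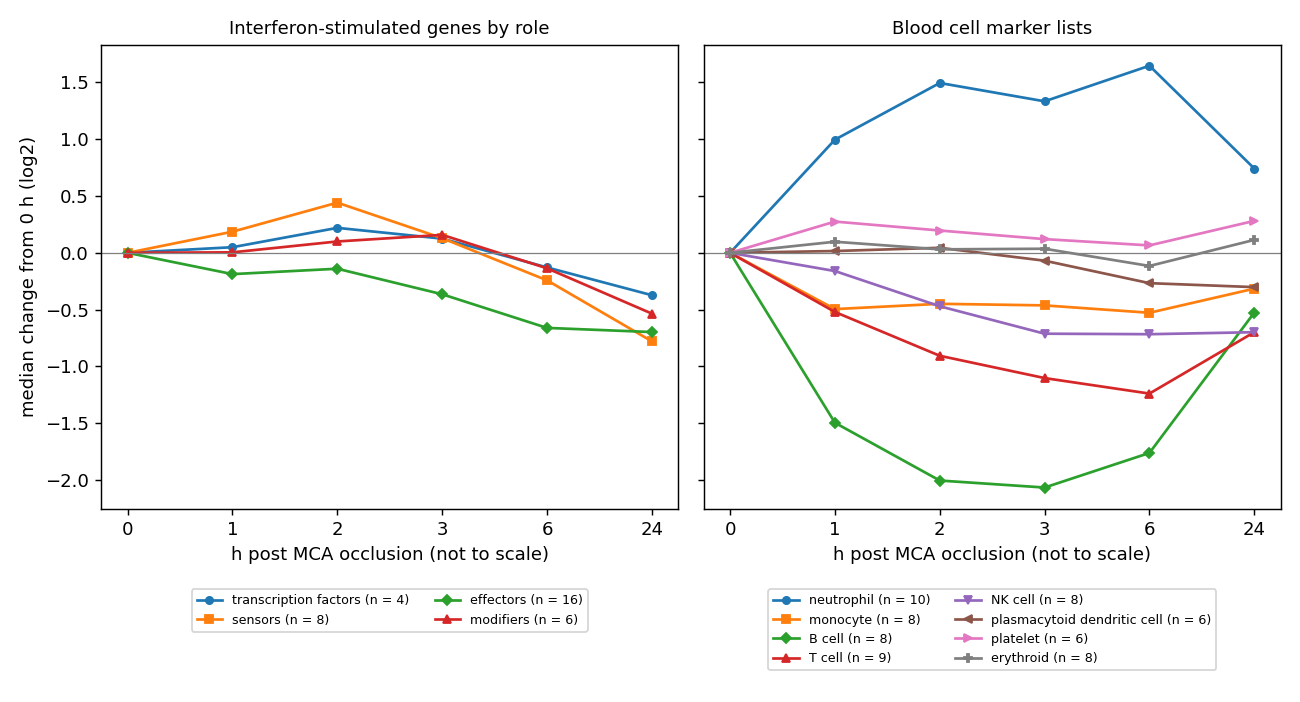
Median change of log2 signal from 0 h (vertical axis) at each time post MCA occlusion (horizontal axis, not to scale) for the 4 roles of interferon-stimulated genes (left) and 8 blood cell marker lists (right). All 4 roles are at their lowest at 24 h, between -0.78 and -0.37. The plasmacytoid dendritic cell and platelet lists are also farthest from 0 at 24 h, at -0.30 and 0.28. The neutrophil, T cell, monocyte, NK cell and erythroid lists are farthest at 6 h, and the B cell list at 3 h. The NK cell list is nearly as low at 24 h (-0.70) as at 6 h (-0.72).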

How the data were processed

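Blood mRNA was measured on RaGene-1_0-st arrays, 47 in all. Per the file headers, the authors normalized the arrays by RMA and deposited log2 signals, together with the mean and SD of each probe set per time point, which were used here as the authors' values. The table also holds 47 columns of single arrays whose names match no sample; these were not used in any step. Columns of the authors' own comparisons (fold changes, p-values, adjusted p-values and F tests) were not used either. Depth has no meaning for arrays, and the number of arrays limits the precision.

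limma's moderated test (version 3.58.1, R 4.3.3) was rebuilt from the deposited summary values for all 27596 probe sets, with 41 residual and 5.71 prior degrees of freedom, and p-values were adjusted by Benjamini-Hochberg per comparison with a threshold of 0.05. No filter on low values was set. The fit takes the SDs as plain and the arrays as independent; since the same rats were bled repeatedly, correlation within a rat was not modelled. RNA was worked up in 6 batches, which the sources used here do not tie to samples. On simulated data with 200 changed probe sets, 100 of 100 changes of 1 log2 unit and 89 of 100 of 0.5 were recovered at 2 h against 0 h, and 7.35% of the 204 calls were false. In the real data far more probe sets were called at 2 h, 21.7% higher and 18.6% lower. The simulated rates therefore need not hold for the reported calls.

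The members, the other gene lists and the comparisons were chosen with earlier results of these data known. Named genes were all members. Of the other interferon pathway lists, all called genes were named where 5 or fewer, otherwise mainly the 3 with the largest called change. In the list of further genes known to answer interferon, the gene with the largest change was not named. The cell marker lists are given as counts and medians with hardly any names. Further names were chosen after their values were seen. Some genes of these other lists are counted but not reported here by name. Levels were not compared between probe sets, beyond the choice for Rnf213, the 25% filter and means set beside the highest or median mean. Positions are those of the table (rn5), and promoters are from RefSeq (GRCr8). Alternatives were no moderation of the variance, the variance taken from the compared time points alone, an intensity trend with a robust prior, median centring, quantile normalization of the means, the mean of all probe sets of a symbol, the F test without the 24 h samples, a filter leaving out the lowest 25% of probe sets, and SDs rescaled from another divisor.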

Additional observations from a re-analysis of the deposited data

Results flagged for a closer look

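In 9 genes signal was called higher than at 0 h at 2 h and lower at 24 h (limma, adjusted p below 0.05), as were 0.29% of all probe sets. Oasl lost its 24 h call under 3 alternative settings and Parp9 its 2 h call with means centred on their median. The differences of 24 h minus 2 h were -1.45 for Oas2, -1.42 for Oasl2, -1.31 for Isg15, -1.30 for Zbp1 and -1.21 for Ifit2. They were -1.18 for Ifih1, -1.02 for Oasl, -0.82 for Irf9 and -0.48 for Parp9. The genes were chosen by those calls on the same arrays, so the differences are a description and carry no test. The site of sampling also differed between these times and cannot be told apart from time.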

How the results depend on the processing

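The counts of genes higher or lower were recomputed under 8 alternative settings, and the F test count also without the 24 h samples; 306 of 312 recomputed counts stayed within 1.5 times the reported one. Within that limit, quantile normalization of the means turned the 3 h balance against 0 h from 9 higher and 12 lower to 13 and 9. The counts outside it concerned short intervals. From 2 h to 3 h, 2 genes had risen, and 1 rose with the variance of the compared time points alone, with an intensity trend and robust prior, with means centred on their median, and with SDs rescaled from divisor n, the last being an alternative chosen after seeing the data. With the variance of the compared time points alone, 3 genes in place of 6 fell from 2 h to 3 h and 0 in place of 1 rose from 3 h to 6 h; fewer arrays enter that variance. Of the 112 calls of single genes against 0 h, 13 missed the threshold under at least 1 setting, none turned, and 99 held under all 8. Among the largest changes of the genes with no call, Isg20 at 3 h gained one under quantile normalization of the means (0.34, adjusted p = 0.0499). No paired analysis was possible because the columns used carry no rat number, so the fit with the replicate block was not run, nor could a single array be left out. Dim probe sets give compressed changes, and signal over background per array was not examined.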
